A study of Rattus norvegicus with 47 samples.

Results

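The medial prefrontal cortex of isolation-reared Wistar rats was compared between postnatal day 40 (P40, mid adolescence) and postnatal day 60 (P60, late adolescence). The members are the 5 arrays labelled isolation-reared at P40 (Iso P40) and the 6 labelled isolation-reared at P60 (Iso P60), taken by their labels, 11 of 47 arrays in all. Differences are given as P60 minus P40 on the log2 scale, so that a positive value is a higher signal at P60. The whole series holds isolation-reared (Iso) and socially reared (Soc) Wistar rats at P30, P40, P60 and P80, and bulk RNA of the cortex was hybridised to 1-colour expression arrays. All groups carry the same strain and tissue, and rearing and age are what the labels vary. The age at which isolation began, the sex of the animals and the hybridisation batches are not given in the sources used here. Nothing in the labels says that the arrays of a group come from separate animals, so a p-value here reflects only how far these arrays differ from each other, and that spread may be technical. The step is a difference between groups of arrays and was not followed within animals.

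The prefrontal cortex is among the last cortical areas to mature, and during adolescence its synapses are remodelled, its long-range axons gain myelin and its interneurons acquire their adult properties. Immediate early genes are switched on within minutes of neuronal firing and are widely used as readouts of recent activity. Housing alone deprives young rats of play and social contact, and it is used as a model of early adversity.

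The deposited values are log2 signals computed by the authors with MAS5, and 12149 of 20249 probe sets that are not controls passed a filter on low signal. The median signal was 75.7 ± 0.842 (SD, n = 5) at P40 and 76.2 ± 0.893 (SD, n = 6) at P60. Gapdh has control probe sets at both ends of its transcript, and their 3' to 5' signal ratio, a measure of how complete the labelled RNA was, lay between 1.78 and 2.03 at P40 and between 1.30 and 1.40 at P60. The groups did not overlap (exact two-sided permutation test, p = 0.00433, the smallest that 5 against 6 arrays can give; adjusted over 4 quality measures, p = 0.0173). The actin ratio was 4.20 ± 0.692 (SD, n = 5) at P40 and 3.94 ± 0.196 (SD, n = 6) at P60 (exact permutation p = 0.42). Between Soc P40 and Soc P60 the mean Gapdh ratio moved the other way, from 1.61 to 2.03. This ratio separates the groups compared here. A fit with the ratio as a covariate takes its slope from differences among arrays within the 8 groups. It extends that slope over the gap between Iso P40 and Iso P60, where neither group has arrays. It therefore cannot tell the ratio from age in this comparison. What this fit changes is given beside the leading lists and, for the other lists, in a paragraph after them. The mean log2 signal of 22 layer and pyramidal neuron markers, which the labelled tissue should hold, was 8.59 in the median P40 array and 8.57 in the median P60 array.

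**Figure D1:**
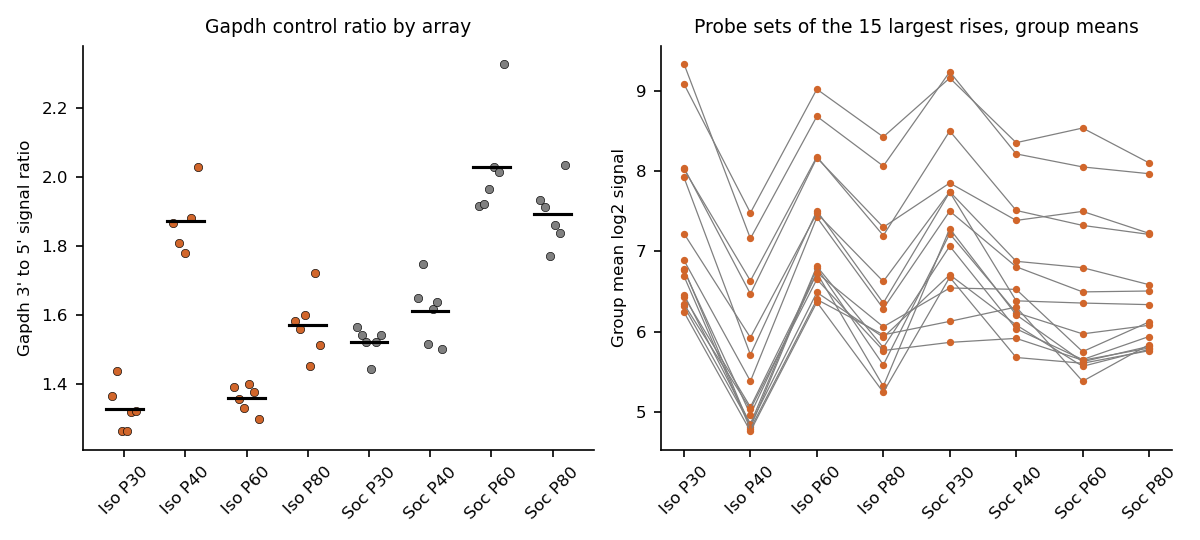
Left, the Gapdh 3' to 5' signal ratio (y axis, linear) of each array by group, with a line at the group mean. Right, group mean log2 signal (y axis) of the probe sets with the 15 largest rises, 1 line per probe set. Iso P40 arrays lie between 1.78 and 2.03 and Iso P60 arrays between 1.30 and 1.40, and the probe sets on the right are lower in Iso P40 than in Iso P60.

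Between P40 and P60, 2079 probe sets rose and 2146 fell by limma at an adjusted p under 0.05 (17.1% and 17.7% of 12149). Most steps were small: 543 rose and 163 fell by more than 0.5 (4.47% and 1.34%). Where each of 7896 genes was represented by its brightest probe set, 985 genes rose (12.5%) and 1442 fell (18.3%), while 93 rose and 91 fell by more than 0.5 (1.18% and 1.15%). The median step of these genes was -0.03. For 1095 of the 7896 genes (13.9%) the Iso P40 and Iso P60 arrays did not overlap, and statements of no overlap below are to be read against that share. The gene groups below use the brightest probe set of each gene, and their counts are to be read against the shares of 12.5% and 18.3%. Counts for socially reared rats are to be read against 28.1% of genes higher and 24.4% lower at P60. For the fit with the covariate the share by gene was not computed. Of 12149 probe sets, 1479 rose and 1554 fell in that fit.

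**Figure D2:**
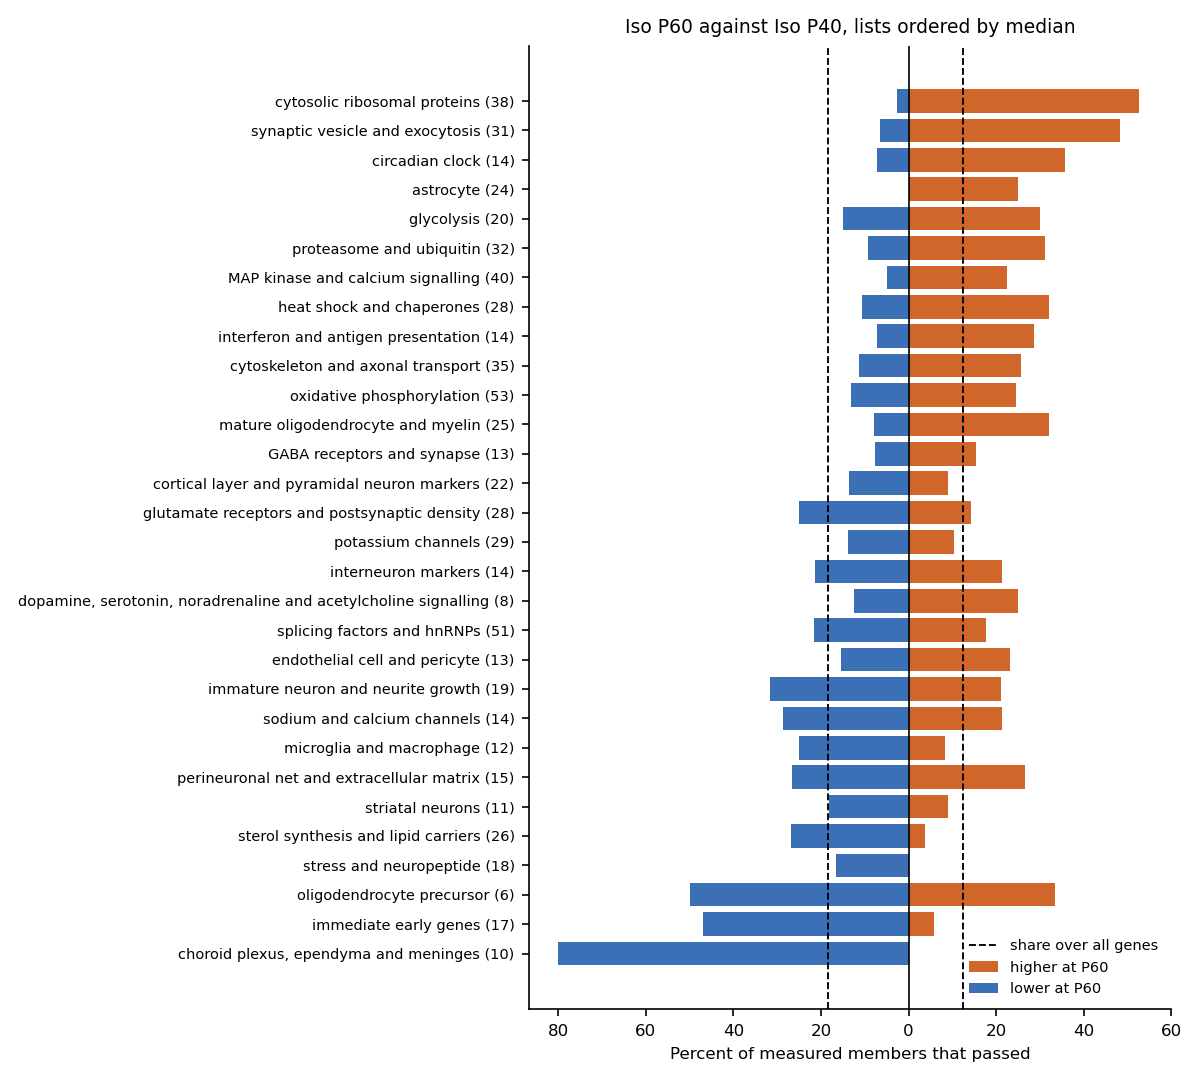
Share of the measured members of each gene list (x axis, percent) that were higher at P60 (right) or lower at P60 (left), with the number of measured members in brackets and lists of under 5 members left out. Dashed lines mark the shares over all 7896 genes, 12.5% higher and 18.3% lower. Ribosomal proteins and synaptic vesicle genes extend farthest to the right, and the list of choroid plexus, ependyma and meninges extends farthest to the left.

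Of 17 immediate early genes measured, 8 fell, 1 rose and 8 did not pass, with a median step of -0.18. With the Gapdh ratio as a covariate 6 fell and 2 rose, and Junb and Klf4 were no longer called (limma adjusted p = 0.938 and 0.0522). Arc, whose product reaches active synapses and drives removal of AMPA receptors, read 8.21, 8.22, 8.26, 8.27 and 8.31 in the P40 arrays, and its lowest, median and highest P60 arrays read 7.52, 7.65 and 7.74. Every P60 array lay under every P40 array. Arc fell by 0.62 (SE 0.0399, limma adjusted p = 2.02e-17), a 1.53-fold difference. Dusp1, a phosphatase that shuts off MAP kinases, read 8.44, 8.53, 8.49, 8.54 and 8.35 at P40 and from 7.32 to 8.12 at P60, with a median of 7.90. The lowest P60 array stood apart from the other P60 arrays, and the groups did not overlap. Dusp1 fell by 0.62 (SE 0.0716, limma adjusted p = 1.08e-09). Fos, a subunit of the AP-1 transcription factor, fell by 0.47, and its highest P60 array and lowest P40 array both read 6.73 after rounding. Nr4a1, an orphan nuclear receptor induced by activity, fell by 0.22. Klf10, Egr2, Klf4 and Junb also fell, by 0.28, 0.28, 0.38 and 0.45, while Egr1, an activity-induced zinc finger factor with a high signal, rose by 0.09. The other 8 members did not pass, and their steps lay within the range of the list, -0.62 to 0.12.

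The summed level of the list, as its mean log2 signal per array, ran from 7.65 to 7.78 at P40 and from 7.43 to 7.58 at P60. At P30 it had been lower than at P40, with a median array of 7.48, and at P80 it was 7.74. The P40 level was thus above both P30 and P60. In socially reared rats the same genes had a median step of 0.20 between P40 and P60, with 9 of 17 called higher and 3 lower. The difference between the steps, tested in the same fit, was negative for 10 of 17 members and positive for none (29.7% and 21.8% over all genes). For Arc it was -0.43 (adjusted p = 7.41e-09), with Soc means of 9.31 at P40 and 9.12 at P60, both above either isolated group.

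The start regions of 12 of the 17 genes were listed in RefSeq (GRCr8), as windows from 250 bases before to 50 after the annotated start. The 8-base cyclic AMP response element TGACGTCA, the same on both strands, was in 2 of these 12 and in 1.91% of all 27457 windows. The CArG box, the site of serum response factor, was in 3 of 12 and in 1.64% of all. The windows are those of called members that hold either motif, and capitals mark it. A match is a description of letters and not a site in use.
Dusp1 (chr10:17184719-17184746, plus strand, fell): gcagggcgggTGACGTCAccacccggtc
Egr2 (chr20:21054505-21054534, minus strand, fell): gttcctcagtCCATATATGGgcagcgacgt
Egr1 (chr18:26736963-26737014, plus strand, rose): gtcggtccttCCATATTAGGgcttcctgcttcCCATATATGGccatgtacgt

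Of 10 measured genes from a list for choroid plexus, ependyma and meninges, 8 fell and none rose, with a median step of -0.58. The 10 hold no ependymal marker and are mostly meningeal. The ependymal genes Foxj1 and Tmem212 and the choroid plexus genes Aqp1 and Folr1 were below the signal filter and untested, with steps of 0.10, -0.08, 0.17 and 0.16. Other members of the list below the filter, also untested, had negative steps. Sostdc1, Kcne2, Dcn and Lum had steps of -0.72, -0.13, -0.47 and -0.41, and the Prlr probe sets of -0.66 and -0.14. Ttr, the thyroid hormone carrier transthyretin made by the choroid plexus, read 8.05, 8.001, 8.11, 7.83 and 8.08 at P40, and its P60 arrays ran from 5.79 to 6.004 with a median of 5.85. All P40 arrays stood far above all P60 arrays. Ttr fell by 2.14 (SE 0.107, limma adjusted p = 1.26e-21), a 4.42-fold difference and the largest fall of any named gene. At P30 its isolated mean had been 6.58 and at P80 it was 5.86, so that P40 was the highest of the isolated ages, while the socially reared P30 group was higher still, at 9.70. Ogn, Col3a1 and Col1a2, matrix genes of meningeal fibroblasts, fell by 0.80, 0.81 and 0.74, and Igfbp2, an insulin-like growth factor binding protein, fell by 0.74. With the Gapdh ratio as a covariate 5 of the 10 fell, namely Ttr, Ogn, Col3a1, Col1a2 and Igfbp2. The mean level of the list ran from 7.36 to 7.41 in P40 arrays and from 6.65 to 6.83 in P60 arrays. The same list had a median step of -0.44 in socially reared rats, where 8 of 10 fell. Ttr itself had a step of -0.12 there, and the difference between steps was -2.02 (adjusted p = 8.75e-16). In bulk tissue fewer cells of a type and less RNA per cell cannot be told apart, and whether the tissue pieces held unequal amounts of these membranes was not tested. Hbb, the 1 measured marker of blood, read from 10.5 to 10.8 at P40 and from 10.002 to 10.23 at P60 and fell by 0.52 (SE 0.0477, limma adjusted p = 1.51e-12). With the Gapdh ratio as a covariate its step was -0.20 (limma adjusted p = 0.0446).

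Of 38 ribosomal protein genes measured, 20 rose, 1 fell and 17 did not pass, with a median step of 0.17. In the fit with the covariate 29 rose and the median step was 0.51. Rpl4, a core protein of the large subunit, read 10.07, 10.03, 9.94, 10.03 and 10.08 at P40 and from 10.36 to 10.54 at P60, with a median of 10.40. Each P60 array was above each P40 array, and the step was 0.40 (SE 0.0388, limma adjusted p = 9.21e-12). Rps9, of the small subunit, rose by 0.43 (SE 0.043) and Rpl12 by 0.38. Rplp0, the stalk protein of the large subunit, fell by 0.36 (SE 0.0417, limma adjusted p = 1.36e-09), from 9.62 to 9.75 at P40 down to 9.14 to 9.45 at P60. The 17 members that did not pass included Rps3, Rpl5 and Rpl11. In socially reared rats 9 members were higher and 10 lower, where 28.1% and 24.4% of all genes were.

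Ribosomal protein transcripts often begin with a C followed by a run of pyrimidines, which ties their translation to growth signals. A C followed by at least 4 further C or T, beginning within 5 bases of the annotated start on the gene's strand, was in 19 of 35 measured members listed in RefSeq and in 17.0% of all 27457 windows. Of 18 listed members that rose, 11 held it. The starts of the 4 members named above are shown, from 10 bases before the annotated start, with the run in capitals.
Rpl4 (chr8:73566467-73566496, plus strand, rose): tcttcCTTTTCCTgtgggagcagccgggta
Rps9 (chr1:74430418-74430447, minus strand, rose): cggccacgtttCTCTTTgtcacgggcctga
Rpl12 (chr3:36661930-36661959, plus strand, rose): aacatccgtCTTTTCggctttcggttcgga
Rplp0 (chr12:46718371-46718400, minus strand, fell): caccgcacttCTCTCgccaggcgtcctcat
The run was present in Rplp0 too, which moved against the others.

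**Figure D3:**
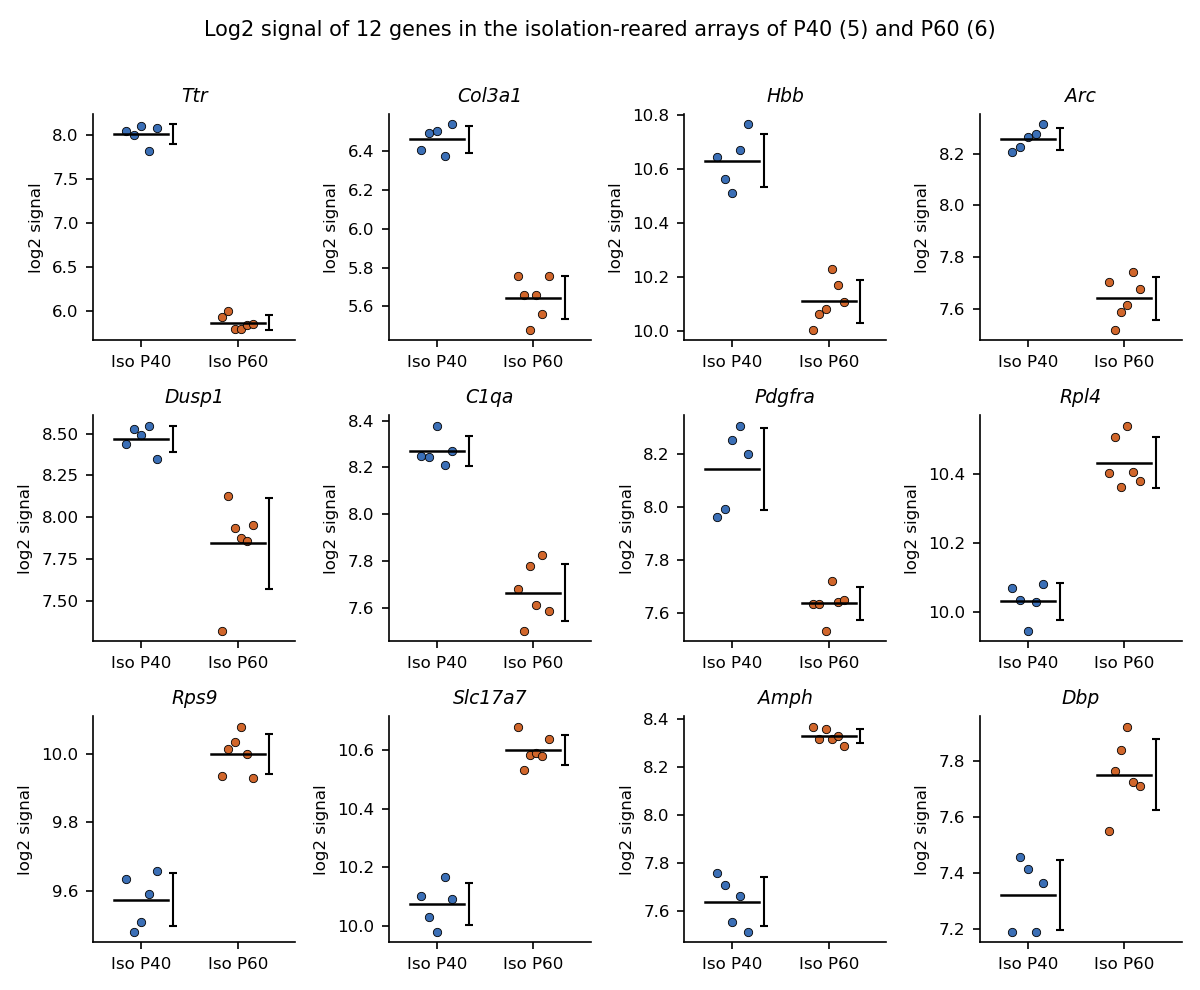
Log2 signal (y axis, a separate scale for each gene) of 12 genes in the 5 Iso P40 and 6 Iso P60 arrays, with a line at the group mean and a bar of 1 SD to its right. Ttr, Col3a1, Hbb, Arc, Dusp1, C1qa and Pdgfra are lower at P60 and Rpl4, Rps9, Slc17a7, Amph and Dbp are higher, with no overlap of the groups in any panel. The genes shown are all called list members, and over all 7896 genes the groups did not overlap for 13.9%.

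Genes of synaptic vesicles and exocytosis rose in 15 of 31 members and fell in 2, with a median step of 0.13. The covariate brought these to 20 and 1, and the median step to 0.38. Syt1, the calcium sensor of fast transmitter release, read 6.78, 6.93, 7.00, 6.99 and 6.65 at P40 and from 8.17 to 8.41 at P60, with a median of 8.35. Its step was 1.45 (SE 0.0639, limma adjusted p = 1.32e-23), a 2.73-fold difference. Slc17a7, the vesicular glutamate transporter of cortical pyramidal neurons, read from 9.98 to 10.17 at P40 and from 10.53 to 10.68 at P60. It rose by 0.53 (SE 0.0395, limma adjusted p = 2.48e-15), and both of its probe sets rose. Amph and Sh3gl2, which bend membrane during vesicle retrieval, rose by 0.69 and 1.24. In socially reared rats 16 members were lower and 4 higher, and the difference between steps was positive for 19 of 31 and negative for 4.

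On the receiving side of the synapse members moved in both directions, as did genes in general. Of 28 glutamate receptor and postsynaptic density genes, 4 rose and 7 fell (12.5% and 18.3% over all genes), with a median step of 0.02. Cacng3, an auxiliary subunit of AMPA receptors, rose by 0.64, and Camk2g, a calcium-dependent kinase, rose by 1.005. Camk2a, the abundant forebrain form of that kinase, fell by 0.34, and Dlgap1, a scaffold protein, fell by 0.28 in its brightest probe set, while 2 of its 4 probe sets rose and 2 fell. Of 13 GABA receptor and synapse genes 2 rose and 1 fell. Gabrg1 rose by 0.60, and Slc12a2, a chloride importer, fell by 0.15. Gabra2, a receptor subunit, passed at 0.32 but not without any 1 of arrays 1, 2 and 4 of P40 or 1, 2 and 3 of P60. Without array 1 of P40 its step was 0.19 (limma adjusted p = 0.254).

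Among 14 interneuron markers 3 rose and 3 fell. Cck, the peptide cholecystokinin, rose by 0.29 and Calb1, a calcium buffer, by 0.16. Vip, the peptide of disinhibitory interneurons, fell by 0.23, and Reln fell by 0.15 in its brightest probe set while another rose. Of 22 layer and pyramidal neuron markers 2 rose and 3 fell: Nefh, the heavy neurofilament, was up by 0.27, while Etv1 and Lmo3 fell by 0.23 and 0.25. Pcp4, a calmodulin regulator, had a step of -0.14, which turned to 0.09 with the Gapdh ratio as a covariate (limma adjusted p = 0.42). Of 19 genes of immature neurons and neurite growth 4 rose and 6 fell. Dpysl5, Tubb2b and Marcksl1, which serve growth cones and the young cytoskeleton, fell by 0.33, 0.22 and 0.23, and Cd24 rose by 0.27. Of 15 perineuronal net and matrix genes 4 rose and 4 fell. Hapln4, a link protein of nets, and Cspg5, a brain proteoglycan, rose by 0.32 and 0.42, while Nid1, of the basement membrane, fell by 0.68.

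Glial lists moved unequally. Of 25 genes of mature oligodendrocytes and myelin 8 rose and 2 fell. Qdpr, a pterin reductase abundant in oligodendrocytes, rose by 0.55 (SE 0.0506, limma adjusted p = 2.44e-12) and Cryab, a small heat shock protein, by 0.61. Mag, an adhesion protein of the innermost myelin layer, fell by 0.43. The brightest probe set of the major myelin gene Mbp had a step of 0.14, which did not pass (limma adjusted p = 0.148), while its other probe set rose. Of 6 precursor genes 2 rose and 3 fell. Pdgfra, the receptor that marks oligodendrocyte precursors, read 7.96, 7.99, 8.25, 8.31 and 8.20 at P40 and from 7.53 to 7.72 at P60. The groups did not overlap, and Pdgfra fell by 0.51 (SE 0.0689, limma adjusted p = 6.45e-08). Bcas1, which marks oligodendrocytes starting to form myelin, rose by 0.45.

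Of 24 astrocyte genes 6 rose and none fell. Id3, a transcription regulator, rose by 0.41, S100b, a calcium-binding protein, by 0.25, and Clu and Aldoc by 0.19 each. Of 12 microglia and macrophage genes 3 fell and 1 rose. C1qa, the first chain of complement C1q, read 8.25, 8.24, 8.38, 8.21 and 8.27 at P40 and from 7.50 to 7.82 at P60. C1qa fell by 0.61 (SE 0.05, limma adjusted p = 6.04e-14), and its social step was -1.23. P2ry12 and Tmem119, which mark resident microglia, fell by 0.34 and 0.32. C1qc moved the other way, by 0.33, but did not pass without any 1 of arrays 3 and 4 of P40 or 1, 3, 4 and 6 of P60. Without array 4 of P40 its step was 0.20 (limma adjusted p = 0.242). C1qb had a step of -0.03 and did not pass, so the 3 chains of C1q did not move together. Among 13 endothelial and pericyte genes 3 rose and 2 fell. Of 11 striatal genes, a check on the dissection, 1 rose and 2 fell, and the called step farthest from 0 was that of Rxrg at -0.26. The steps of all 11 ran from -0.44 to 0.21, the lowest being that of Pdyn, which did not pass (limma adjusted p = 0.0821).

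Clock genes rose in 5 of 14 members and fell in 1. Bhlhe41 and Dbp, outputs of the clock, rose by 0.41 and 0.43, and the repressors Cry2 and Per2 rose by 0.31 and 0.29. Bmal1, the activator, fell by 0.33. The hour of death is not given in the sources used here. Of 26 genes of sterol synthesis and lipid transport 7 fell and 1 rose, and the count of falls was 3 without array 1 of P60 and 4 without array 1 of P40 or with the Gapdh ratio as a covariate, where 2 rose. Hsd17b7 and Dhcr7, late enzymes of cholesterol synthesis, fell by 0.34 and 0.32.

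Lists of energy and protein quality genes had small median steps, from 0.04 for oxidative phosphorylation to 0.07 for glycolysis. Of 53 oxidative phosphorylation genes 13 rose and 7 fell, but with the Gapdh ratio as a covariate 30 rose and none fell, and with quantile normalization 13 fell. Sdhb and Ndufa5 rose by 0.26 and 0.47 and Ndufb6 fell by 0.24. Of 20 glycolysis genes 6 rose and 3 fell, with Eno1 and Tpi1 up by 0.15 and 0.18. Of 32 proteasome and ubiquitin genes 10 rose and 3 fell: Psmc1 and Psmb1 were up by 0.34 and 0.30, and Psmd11 fell by 0.48. Of 28 chaperones 9 rose and 3 fell, with steps from -0.21 to 0.78. Of 51 splicing genes 9 rose and 11 fell, among them Srrm2 and Srsf11 with falls of 0.36 and 0.40. In signalling, 9 of 40 MAP kinase and calcium genes rose and 2 fell. Rasgrp1, an exchange factor that activates Ras, rose by 0.97 (SE 0.0841) in its brightest probe set, and the kinase Mapk9 by 0.74. Of 14 sodium and calcium channel genes 3 rose and 4 fell, with Cacna2d3, an auxiliary calcium channel subunit, falling by 0.54. Of 29 potassium channel genes 3 rose and 4 fell, with Kcnmb4 up by 0.35 and Kcnj6 falling by 0.27. Sgk1, a kinase induced by glucocorticoids, fell by 0.35, and 3 of 18 stress and neuropeptide genes fell while none rose. Maoa, which degrades serotonin and noradrenaline, rose by 0.40, as 1 of 2 risers among 8 monoamine and acetylcholine genes. Of 35 cytoskeleton and transport genes 9 rose and 4 fell, and the motor proteins Kif5a and Kif5c rose by 0.36 and 0.32 while Kif5b fell by 0.44.

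With the Gapdh ratio as a covariate, the counts of these lists moved in both directions. Over all 12149 probe sets 1479 rose and 1554 fell in that fit, against 2079 and 2146 without it. The share by gene was not computed for it, so the counts below have no direct background. More members rose among astrocyte genes (12), layer and pyramidal neuron markers (5), glycolysis (12), MAP kinase and calcium genes (18) and cytoskeleton genes (14). Fewer rose among interneuron markers, oligodendrocyte precursor genes, sodium and calcium channels, potassium channels and monoamine genes (1 each), perineuronal net genes (2), splicing genes (4), and microglia and striatal genes (none). Fewer fell among immature neuron genes, myelin genes and striatal genes (1 each) and cytoskeleton genes (2). More fell among splicing genes (13), interneuron markers and microglia genes (4 each) and MAP kinase and calcium genes (3). Not every list whose counts moved is given here. Among the genes named above, the calls of Gabra2, Calb1, Etv1, Pcp4, Nefh, Cspg5, Id3, C1qc, Rxrg, Tubb2b, Marcksl1, Cd24, Ndufb6, Dhcr7, Bmal1 and Srrm2 ended. The step of Cspg5 was 0.16, that of Nefh 0.12 and that of Tubb2b -0.06. Cacng3 still rose, by 0.34. The steps of Fos, Egr1, Egr2, Slc12a2, Cck, Lmo3, S100b, Clu, Aldoc, Tmem119, Col1a2, Nid1, Sgk1, Tpi1, Eno1, Rpl4, Rpl12, Kcnmb4, Srsf11, Psmd11, Kif5a, Kif5b and Kif5c grew by over 1.5 times in the same direction.

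Among the 15 largest rises, Atp1b2, a subunit of the sodium pump in glia, read 4.98, 5.08, 5.70, 5.77 and 5.37 at P40 and from 7.14 to 7.77 at P60, with a median of 7.47. Its step was 2.04 (SE 0.142, limma adjusted p = 2.16e-16), a 4.13-fold difference. The brightest probe set of Atp1b2 rose by 0.18. Canx, a chaperone of the endoplasmic reticulum, rose by 1.99 in 1 probe set and had a step of -0.10 in the brightest, which did not pass. Syt4, a synaptotagmin of vesicles that carry neuropeptides, rose by 1.96 against -0.04 in the brightest. App, the amyloid precursor protein, rose by 1.80 against 0.10, and Ppp3r1, the regulatory subunit of calcineurin, by 1.70 against 0.08. Vps41, Rab6a, Scd2 and Mobp rose by 1.61, 1.55, 1.54 and 1.52, and their brightest probe sets had steps of 0.06, 0.05, 0.13 and 0.16. Another probe set of Mobp fell. Only for Oga, which removes O-GlcNAc from proteins, and for Rasgrp1 did the brightest probe set also rise by more than 0.5 among the 12 of these 15 genes with more than 1 kept probe set, by 0.82 and 0.97. Ppm1a, Wac and Actr2-ps1, each with 1 kept probe set, rose by 1.67, 1.65 and 1.77. Ppm1a rested in part on array 5 of P40, which read 2.87, and Poldip2, with a step of 1.62, on array 2 of P40, which read 2.73.

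**Figure D4:**
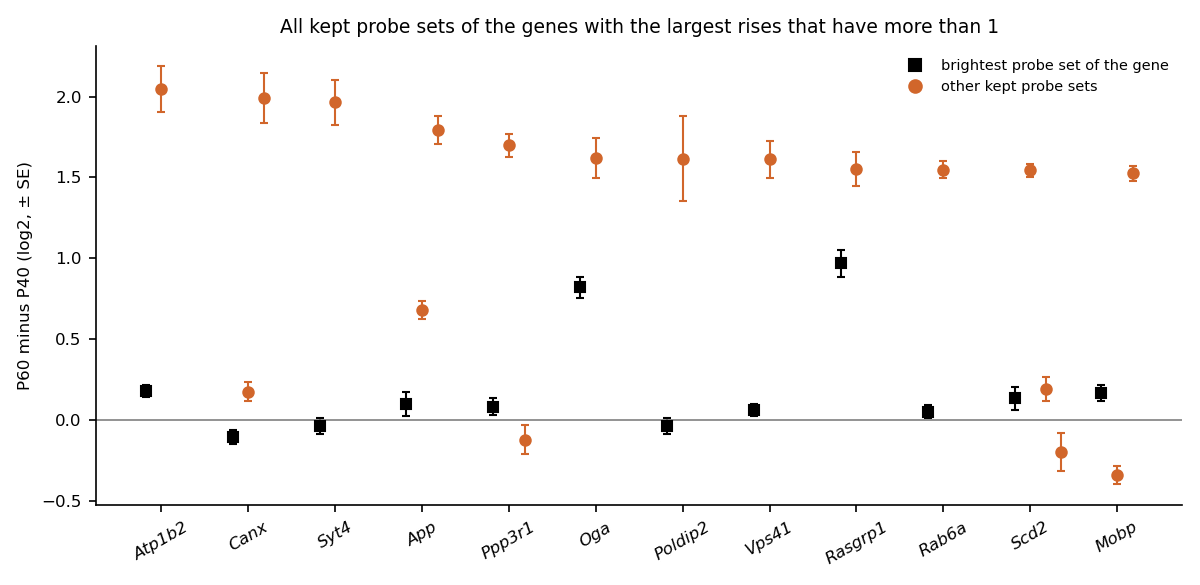
Step from P40 to P60 (y axis, log2, with bars of 1 SE) of every kept probe set of the genes among the 15 largest rises that have more than 1. Black squares are the brightest probe set of the gene and circles the others. The brightest probe sets of Oga and Rasgrp1 sit at 0.82 and 0.97 and those of the other genes between -0.10 and 0.18.

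This pattern held across the large rises. Of 455 rises over 0.5 in probe sets with a gene symbol, 377 belonged to genes with another kept probe set, and 362 of these were not the brightest of their gene. Over the 337 genes concerned, the brightest probe set rose in 77, fell in 43 and did not pass in 217, with a median step of 0.04. Over all genes 12.5% rose and 18.3% fell. Each gene has only 1 brightest probe set, and no share over all probe sets of such genes was taken. Of 118 falls over 0.5 with a symbol, 35 belonged to genes with another kept probe set, and 27 of these were not the brightest. In those 27 genes the brightest fell in 9, rose in 1 and did not pass in 17. Of all 543 rises over 0.5, Iso P40 was the lowest of the 4 isolated ages for 431 and of all 8 groups for 317. From P30 to P40, 461 of them were called lower, and from P60 to P80, 485 were. The shares of all probe sets called lower in those steps were not taken, so these counts have no background. The 543 rises were chosen by their P40 and P60 values, which favours a low P40 and a high P60. The steps from P30 to P40 and from P60 to P80 use those same arrays. The arrays of Iso P40 also had the higher Gapdh ratio, and the signal of the 5' Gapdh probe set rose by 0.57 while that of the 3' probe set rose by 0.11. Control probe sets of beta-actin were up by 1.19 at the 3' end and 1.27 at the 5' end. With the ratio as a covariate, 14 of the 15 largest rises still passed, all but Ppm1a (1.24, limma adjusted p = 0.0606). The median step of the 15 was 1.62 against 1.65 without it. These 15 were chosen for their size. The slope of that fit comes from within groups and the ratio separates the groups, so the ratio and age cannot be told apart here. Among 1405 genes with at least 2 kept probe sets, all of them rose in 100 genes and all fell in 30, while 129 genes had calls in both directions. Chosen after their values were seen, Septin3, Mtpn, Opa1, Lgi3 and Cyfip2 were among the genes in which every kept probe set rose, with smallest steps of 0.76, 0.71, 0.69, 0.59 and 0.42.

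The 15 largest falls were smaller. After Ttr came Anks1b, a postsynaptic protein, which fell by 1.003 (SE 0.133, limma adjusted p = 4.07e-08) while its brightest probe set had a step of -0.10. Suclg2, a subunit of the succinate-CoA ligase of mitochondria, read 8.96, 8.80, 8.88, 8.79 and 8.81 at P40 and from 7.72 to 8.10 at P60. The groups were well apart, and Suclg2 fell by 0.92 (SE 0.054, limma adjusted p = 4.8e-19). Fbxw7, the recognition subunit of a ubiquitin ligase, fell by 0.89, and both of its probe sets fell. Sorl1, a sorting receptor that binds App, fell by 0.87, but 3 of its probe sets rose and 3 fell. Naa15, of the amino-terminal acetylation complex, fell by 0.93 in 1 probe set while 2 others rose. Wdfy1, Zfp763, Lpgat1, Anp32a, Rbm27, Tlk1, Thoc2, Ptov1 and Degs1 completed the list, with falls of 0.85 to 0.97. The brightest probe sets of Wdfy1, Rbm27, Tlk1 and Degs1 did not pass, with steps of -0.09, 0.05, -0.08 and -0.001.

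Socially reared rats differed in this step. Their own comparison of 6 arrays at P40 with 6 at P60 shared no array with the isolated one, and 6397 probe sets passed (52.7%). Of the 4225 probe sets called in the isolated step, 500 were called in the same direction in the social step, 2137 in the opposite direction and 1588 were not called there. Over 7896 genes the steps had a Pearson correlation of -0.29, given as a description across genes, which are not independent. Tested in 1 fit, the isolated step minus the social step was called for 6534 probe sets (53.8%), positive for 2976 and negative for 3558 (24.5% and 29.3%). The Gapdh ratio moved in opposite directions in the rearing groups, and with it as a covariate the counts were 1824 and 2190.

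**Figure D5:**
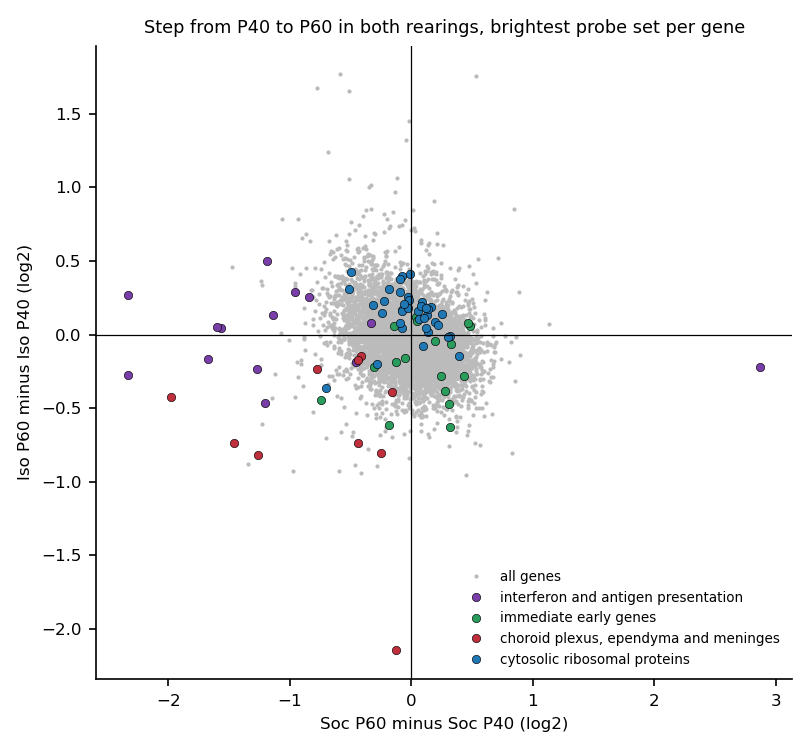
Step from P40 to P60 in isolation-reared rats (y axis, log2) against the step in socially reared rats (x axis, log2), 1 point per gene by its brightest probe set, with 4 gene lists in colour. Interferon genes lie to the left, between -0.46 and 0.50 on the y axis, except RT1-T24-4 at 2.87 on the x axis, and Ttr lies lowest at -2.14.

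The largest differences in the positive direction began with Irf7, a master regulator of type I interferon genes. It read from 5.62 to 6.04 in Iso P40 and from 5.95 to 6.42 in Iso P60, whereas Soc P40 ran from 8.18 to 8.37 and Soc P60 from 5.81 to 6.13. Its isolated step of 0.27 did not pass without array 1 of P60 or array 2 of P40. The social step was -2.33, and the difference was 2.60 (SE 0.119, limma adjusted p = 6.73e-23). Of 14 interferon and antigen presentation genes, 4 rose and 1 fell in isolated rats, with a median step of 0.05. The count of rises was 1 without array 1 of P60, and 2 without array 1 or array 2 of P40 or array 4 of P60. Ifi27, an interferon-induced protein, rose by 0.50 (SE 0.0364, limma adjusted p = 1.19e-15), with no overlap of the arrays. In socially reared rats 13 of 14 fell, with a median step of -1.195, and the difference was positive for 12 and negative for 1. The exception was RT1-T24-4, a class I histocompatibility gene, whose difference of -3.09 came with Soc P40 arrays from 1.79 to 5.06. The other positive differences were Poldip2, Ppm1a, Atp1b2, Actr2-ps1, Syt4, Canx and Wac, all among the 15 largest rises.

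In the negative direction, Arxes2 fell by 0.80 in isolated rats and rose by 0.83 in socially reared rats, a difference of -1.63 (SE 0.11, limma adjusted p = 5.7e-17). Id4, which restrains differentiation of neural precursors, had steps of -0.45 and 0.81 in 1 probe set, and its brightest probe set had an isolated step of -0.02. Reck, a membrane inhibitor of matrix proteases, had steps of -0.54 and 0.66, and Dock3, a neuronal exchange factor for Rac, of -0.73 and 0.53. Zfp763 and Cryl1 had differences of -1.41 and -1.32. The differences of Cryl1 and Ppm1a did not pass in the fit with the Gapdh ratio as a covariate.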

How the data were processed

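Per the labels' protocols, total RNA was extracted with Trizol and biotin-labelled cRNA was made from 7 ug. The authors deposited log2 signals of 20304 probe sets on 47 arrays, computed with MAS5 per the submitters' processing notes, version and scaling target not given in the sources used here. By the counts in the authors' deposited table of filters, these passed out of 31099. No further normalization was applied. Arrays 3 and 4 of Iso P30 lay 0.116 apart (root mean square log2 distance), 0.488 of their group's median distance, and were averaged into a single sample. That choice followed a look at the data and left 46 samples in the fit. Probe sets were kept at a mean log2 signal of at least 5.72, the 40th percentile. In the platform annotation 14607 non-control probe sets had 1 gene symbol, 326 several and 5316 none.

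limma 3.58.1 (R 4.3.3) fitted 8 group means with a variance trend and 38 residual degrees of freedom, two-sided, Benjamini-Hochberg adjusted over all kept probe sets. The members, the 31 gene lists and the tests were chosen with earlier results of these data known. Named were the 15 largest rises and falls among called probe sets with non-overlapping arrays, 8 and 8 differences between rearing groups, and up to 4 called members per list by p. Others are named as markers. On simulated data with 200 changed probe sets of 12149 for this comparison, 37.3% of 1.2-fold, 91% of 1.5-fold and 100% of 2-fold changes were recovered, with 6 false among 158 calls. The simulated probe sets varied independently, and far fewer were changed than the 34.8% called in the data. These figures check the fit and do not give the power or error of the real comparison. The number of arrays limits the precision. Exact permutation tests used scipy 1.17.1. The same replicate numbers occur in the groups, but the labels do not say that they pair samples.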

Additional observations from a re-analysis of the deposited data

Results flagged for a closer look

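Among 280 groups of 5 or 6 arrays checked, 18 had 1 array set apart from the rest, and chance alone flags about 1 in 20. At P40, low arrays were array 5 for Ppm1a at 2.87, Cacng3 at 7.17, Cry2 at 7.98 and Kif5b at 9.20, and array 2 for Poldip2 at 2.73. High arrays at P40 were array 3 for Wac at 5.19 and array 1 for Wdfy1 at 7.28. At P60, array 1 was low for Lpgat1 at 6.75, Naa15 at 5.87, Dusp1 at 7.32, Hspa9 at 8.08 and Kif5b at 8.69, and high for Fbxw7 at 7.25 and Pcp4 at 10.87. Array 4 of P60 was high for Scd2 at 9.10, Emcn at 5.86 and Eno1 at 10.76, and array 2 was low for Ptov1 at 6.84.

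The step differed between rearing groups, by the test of the difference in limma, for 6534 probe sets. The isolated step minus the social step was 2.60 for Irf7, 2.54 for Poldip2, 2.45 for Ppm1a, 2.36 for Atp1b2, 2.35 for Actr2-ps1, 2.35 for Syt4, 2.26 for Canx and 2.17 for Wac. It was -3.09 for RT1-T24-4, -2.02 for Ttr, -1.63 for Arxes2, -1.41 for Zfp763, -1.32 for Cryl1, -1.26 for Dock3, -1.26 for Id4 and -1.20 for Reck. Among the other large rises it was 1.82 for App, 1.59 for Ppp3r1, 1.89 for Oga, 1.68 for Vps41, 1.63 for Rasgrp1, 1.73 for Rab6a, 1.36 for Scd2 and 1.69 for Mobp. Among the other large falls it was -0.81 for Anks1b, -0.82 for Wdfy1, -0.53 for Lpgat1, -0.89 for Naa15, -0.37 for Rbm27, -0.33 for Suclg2, -0.61 for Thoc2, -0.42 for Fbxw7, -1.0 for Sorl1 and -0.88 for Degs1. For Ptov1 it was 0.47, since its social step was the larger fall.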

How the results depend on the processing

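Leaving out each of the 11 arrays in turn gave 1897 to 2036 probe sets higher at P60, 1817 to 2126 lower, 535 to 563 higher by over 0.5, 153 to 191 lower by over 0.5, 2876 to 2961 positive and 3400 to 3546 negative differences between rearing groups, and a Gapdh ratio difference of -0.537 to -0.475. With the Gapdh ratio as a covariate, 780 probe sets were lower by over 0.5, differences were positive for 1824 and negative for 2190, and Pcp4 turned to 0.0887 (limma adjusted p = 0.42). That covariate does not overlap between the groups compared and raised the median SE from 0.0799 to 0.154. Of 3033 calls made with it, 2067 were among the 4225 in the same direction and 1 in the opposite. With 16 added to the linear signal, 96 were lower by over 0.5. Without a filter 992 and 544, and with the 60th percentile 265 and 74, were higher and lower by over 0.5. With 1 probe set per gene, an alternative added after the data were seen and fitted on fewer features, 946 were higher and 1378 lower, 93 and 91 by over 0.5, and differences were positive for 1711 and negative for 2336. The replicate block left 2057 higher and 2109 lower. Same-numbered arrays had correlations of their deviations between -0.1 and 0.091. So few arrays cannot settle whether the numbers pair the samples. Where no cause is named, it was not tested.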
